A study of Mus musculus with 8 samples.

Results

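Egr1, Egr2, Egr3, Klf2, Klf4, Klf6, Klf10, Nr4a1, Ier2 and Ier3 are immediate early genes, and they were followed here in the left ventricle of adult FVB mice. They were taken by gene symbol, 10 of the 41128 genes in the count table, and 9 of them were among the 16551 genes with enough reads to be tested. The study compared 4 RE1 knockout mice, which carry a CRISPR deletion of a regulatory element at the Nppa-Nppb locus, with 4 wild-type littermates, all 8 to 12 weeks old. RNA came from pieces of ventricular tissue, so a library mixes the cell types of the ventricle. The series, by its title, dissects a super enhancer that controls the natriuretic peptide genes Nppa and Nppb. The number of founder lines behind the deletion and the hour of tissue collection were not known here.

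Immediate early genes are transcribed within minutes of a stimulus, without new protein synthesis, because the factors that switch them on are already present in the cell. Growth factors, stretch, catecholamines and shear stress reach them through kinases of the ERK and CREB pathways, serum response factor and MEF2, and their short-lived messages then decay. The EGR proteins are zinc-finger activators of GC-rich promoters and are held back by the co-repressors Nab1 and Nab2. The KLF proteins bind related GC-rich and CACCC sequences; KLF2 and KLF4 are best known in endothelium, where laminar flow induces them. NR4A1 is an orphan nuclear receptor, IER2 a nuclear protein and IER3 a membrane-associated regulator of cell survival and ERK signalling.

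Total counts ran from 16778368 to 37133306 per library. Nppa and Nppb, the check of the genotype labels, had raw counts of 246 to 640 and of 1875 to 4266 in wild-type libraries, against 4 to 14 and 1 to 16 in knockout libraries. The knockout libraries fell into pairs over all genes. The mean chi-square per gene was 3.14 between knockout replicates 1 and 3 and 3.54 between knockout replicates 2 and 4, but 14.2 to 16.1 between libraries of different pairs, and 4.96 to 13.0 within the wild type. Mitochondrial rRNA took 6.40% and 6.19% of the counts in knockout replicates 2 and 4 and 8.51% to 10.5% in the other 6 libraries. Marker sums fitted ventricular muscle: the 10 cardiomyocyte markers reached 59619 to 64864 CPM (counts scaled to a common library total) and the 5 atrial markers 6.46 to 8.90 CPM.

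Per kilobase of exon, the members spanned more than 2 orders of magnitude in the wild-type ventricle. Ier3 stood highest at 336 ± 86.4 normalized counts per kilobase, followed by Klf6 at 268 ± 25.3, Klf2 at 234 ± 46.0 and Klf4 at 213 ± 41.4 (SD, n = 4 each). Normalized counts are the authors' raw counts divided by a size factor per library. The ranges of these 4 genes overlapped from neighbour to neighbour. Below a gap came Klf10 at 96.5 ± 3.09, Nr4a1 at 91.1 ± 70.8 and Ier2 at 84.7 ± 11.8, which also overlapped. The EGR genes were lowest, Egr1 at 26.5 ± 8.78, Egr2 at 3.82 ± 1.16 and Egr3 at 1.28 ± 0.74, each clear of its neighbour. Ier3 exceeded 85.7% of all genes tested in level per kilobase, Egr1 28.4% and Egr2 3.60%. In the knockout ventricle the order was Klf2 at 375 ± 95.6, Klf6 at 333 ± 14.4, Klf4 at 300.5 ± 38.2 and Ier3 at 226 ± 34.7 normalized counts per kilobase, and the 3 EGR genes again stood last.

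The genes themselves are compact, as is usual for immediate early genes. Their median genomic span was 5368 bases, against 24745 bases for the 13247 protein-coding genes tested, and 9 of the 10 were longer than at most 21.8% of those genes. Nr4a1, at 20527 bases, was longer than 44.1% of them. None shared a stretch of 100 exonic bases with another gene, and none overlapped another annotated gene on either strand.

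Klf6 was the only member that passed the test across all genes. Klf6, a zinc-finger factor induced by injury in many tissues (ENSMUSG00000000078, chromosome 13, 5861482 to 5870394, GRCm38), was at 1208, 1021, 1284 and 1195 normalized counts in wild-type replicates 1 to 4. It was at 1499, 1417, 1399.6 and 1531 in knockout replicates 1 to 4. All 4 knockout libraries lay above all 4 wild-type libraries, and the knockout values were the tighter group. The mean rose from 1177 ± 111 to 1462 ± 63.2 (SD, n = 4 each), a log2 fold change of 0.31 ± 0.06 (SE; adjusted p = 0.0395 by edgeR), which is 1.24-fold. The exact permutation test gave p = 0.0286, the smallest that 70 assignments of 8 libraries allow (two-sided; 0.0952 after adjustment over the 10 members). The edgeR and permutation tests both treat the knockout libraries as separate units, while these fell into the pairs described above. The authors' deposited table gives Klf6 a log2 fold change of 0.31 and an adjusted p of 0.0484 in the same direction. The size of the difference held without any single library (0.25 to 0.35), but Klf6 no longer passed once wild-type replicate 1, wild-type replicate 2 or any knockout replicate was left out, and the adjusted p by edgeR were 0.0538 to 0.107.

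Klf2 and Klf4 had larger differences and wider scatter. Klf2, the flow-responsive factor of endothelium (ENSMUSG00000055148, chromosome 8, 72319033 to 72321656), was at 449, 311, 508 and 462 normalized counts in wild-type replicates 1 to 4. It was at 644, 842, 464 and 822 in knockout replicates 1 to 4. Knockout replicate 3 lay inside the wild-type range and the other 3 knockout libraries above it. The means were 433 ± 85.0 and 693 ± 177 (SD, n = 4 each), with a log2 fold change of 0.70 ± 0.17 (SE; 95% interval 0.33 to 1.06; adjusted p = 0.0700 by edgeR), and Klf2 did not pass. Against the same wild-type libraries the log2 fold change was 0.95 with knockout replicates 2 and 4 alone (edgeR adjusted p = 0.00843) and 0.35 with knockout replicates 1 and 3 alone (edgeR adjusted p = 0.465).

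Klf4, a factor that overlaps with KLF2 in endothelium and also regulates smooth muscle (ENSMUSG00000003032, chromosome 4, 55527143 to 55532466), was at 675, 466, 756 and 696 normalized counts in wild-type replicates 1 to 4. In knockout replicates 1 to 4 it was at 940.1, 1031, 754 and 941. Knockout replicate 3 again lay inside the wild-type range, just under wild-type replicate 3. The means were 648 ± 126 and 916 ± 117 (SD, n = 4 each), with a log2 fold change of 0.51 ± 0.12 (SE; 95% interval 0.24 to 0.77; adjusted p = 0.0707 by edgeR). Without knockout replicate 3, Klf2 and Klf4 both passed (log2 fold changes 0.85 and 0.59, edgeR adjusted p 0.0157 and 0.0421), and Klf4 also without wild-type replicate 3 (0.58, edgeR adjusted p = 0.0437).

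Klf10, a transforming growth factor beta-inducible repressor that is also under clock control (ENSMUSG00000037465, chromosome 15, 38291463 to 38300706), differed the other way. It was at 384, 408, 407 and 414 normalized counts in wild-type replicates 1 to 4 and at 361, 361, 361 and 309 in knockout replicates 1 to 4. The groups did not overlap, and both were narrow apart from knockout replicate 4. The means were 403 ± 12.9 and 348 ± 26.0 (SD, n = 4 each), with a log2 fold change of −0.21 ± 0.07 (SE; 95% interval −0.36 to −0.07; adjusted p = 0.18 by edgeR). The exact permutation p was 0.0286 (two-sided; 0.0952 after adjustment over the 10 members).

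The promoters of Klf2 and Klf4 are shown because their levels correlated within groups, a relation that did not pass after adjustment. Those of Nr4a1 and Egr2 are shown because both peaked in knockout replicate 4. Egr1 and Klf6 peaked there too, but their promoters are not printed. The printed promoters and the marked motifs were chosen by hand. The correlation and the shared peak are described below. Of the 10 members, Egr1 was not looked up in the RefSeq promoter table (GRCm38.p6), and 6 of the others had an entry. Only bases before the start that lie in no annotated exon are printed, 5′ to 3′ on the gene's strand. Capitals in Klf2 and Klf4 mark GCGGGGGCG, the EGR consensus, on either strand, and in Klf2 also a MEF2 site.
Klf2 (chr8:72318812-72319032, plus strand): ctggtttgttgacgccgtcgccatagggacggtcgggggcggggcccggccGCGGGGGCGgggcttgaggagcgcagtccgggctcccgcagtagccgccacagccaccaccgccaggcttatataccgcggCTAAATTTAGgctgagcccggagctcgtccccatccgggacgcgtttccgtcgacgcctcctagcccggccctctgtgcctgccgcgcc
Klf4 (chr4:55532476-55532725, minus strand): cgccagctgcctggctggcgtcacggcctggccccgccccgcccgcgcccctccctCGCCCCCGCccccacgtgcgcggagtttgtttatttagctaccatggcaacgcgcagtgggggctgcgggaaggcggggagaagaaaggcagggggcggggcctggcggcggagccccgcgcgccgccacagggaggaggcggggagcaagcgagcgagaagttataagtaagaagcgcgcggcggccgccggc
Capitals in Nr4a1 mark GCGGGGGCG and TGACG, the half-site for CREB, on either strand, and capitals in Egr2 mark TGACG and a CArG box, the site for serum response factor.
Nr4a1 (chr15:101266596-101266845, plus strand): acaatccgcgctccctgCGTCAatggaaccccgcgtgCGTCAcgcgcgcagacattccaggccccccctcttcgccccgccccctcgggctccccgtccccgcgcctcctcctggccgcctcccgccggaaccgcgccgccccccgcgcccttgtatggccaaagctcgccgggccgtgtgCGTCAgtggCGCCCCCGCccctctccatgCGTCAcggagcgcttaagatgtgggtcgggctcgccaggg
Egr2 (chr10:67537619-67537868, plus strand): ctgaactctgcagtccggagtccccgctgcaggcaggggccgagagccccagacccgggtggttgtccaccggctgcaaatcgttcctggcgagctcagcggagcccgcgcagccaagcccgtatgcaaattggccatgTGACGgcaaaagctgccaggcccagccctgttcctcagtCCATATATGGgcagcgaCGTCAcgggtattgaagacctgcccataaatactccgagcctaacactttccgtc
Egr1 was not searched, and the matches below cover only the 6 members for which an entry was found. Within 250 bases before the start, GCGGGGGCG occurred in Klf2, Klf4 and Nr4a1 and in 2.57% of the 32851 promoters in the table. TGACG occurred 4 times in Nr4a1, 2 times at the printed start of Egr2 and 1 time each in Klf2 and Klf4, and in 17.8% of all promoters at least 1 time. The CArG box stood 72 to 63 bases before this start of Egr2, the third of 5 in the table, and 1.47% of all promoters held a CArG box. This start was picked as the first of the 5 whose window held both TGACG and a CArG box. The MEF2 site stood 118 to 109 bases before the start of Klf2, against 2.92% of all promoters with such a site. GGGCGG, the GC box, overlaps GCGGGGGCG in Klf2, Klf4 and Nr4a1, was also found in Klf6, Ier3 and other starts of Egr2, and occurred in 32.7% of all promoters. These matches are letters in a window and no measure of binding.

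**Figure D1:**
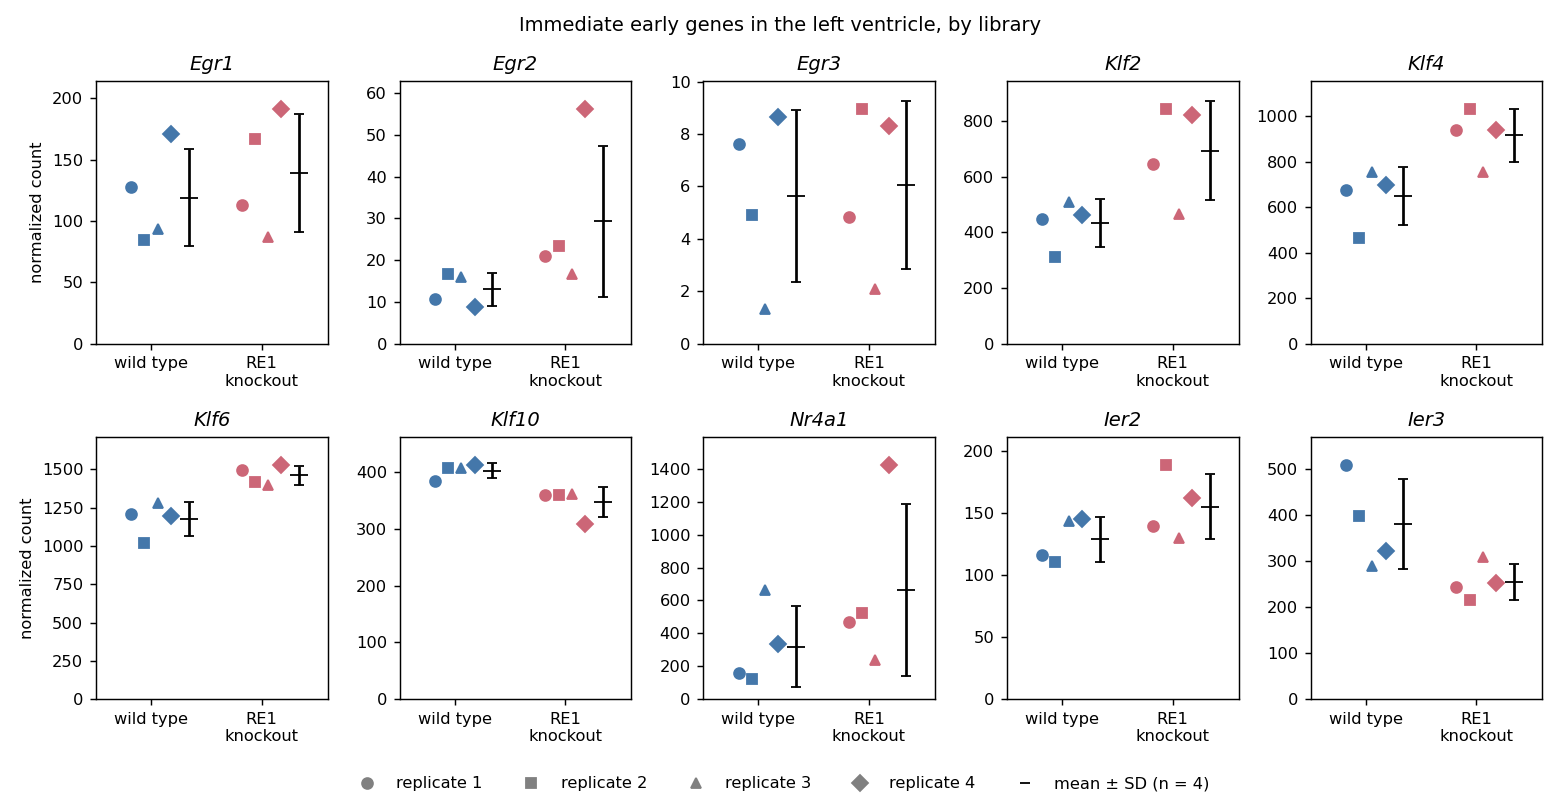
Normalized counts of the 10 members in each library (y axis from 0, one panel per gene), wild type in blue and RE1 knockout in red, with symbols for the replicate number and black bars for the mean ± SD (n = 4). All knockout libraries lie above the wild type for Klf6 and below it for Klf10, while Nr4a1 ranges from 123 to 1425.

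The EGR genes were low and scattered. Egr1, the best-studied member of its family in heart and vessel (ENSMUSG00000038418, chromosome 18, 34859823 to 34864984), was at 127, 84.4, 93.1 and 171 normalized counts in wild-type replicates 1 to 4. In knockout replicates 1 to 4 it was at 113, 167, 86.6 and 191. The groups overlapped over most of their range. The means were 119 ± 39.4 and 139 ± 48.0 (SD, n = 4 each), and the log2 fold change of 0.25 ± 0.24 (SE; adjusted p = 0.711 by edgeR) had a 95% interval from 0.83-fold to 1.69-fold.

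Egr2, known for its part in myelination and lymphocytes (ENSMUSG00000037868, chromosome 10, 67535475 to 67542188), had only 8 to 54 reads per library. Its level was 10.7, 16.7, 16.0 and 8.66 normalized counts in wild-type replicates 1 to 4. In the 4 knockout replicates it was 20.9, 23.4, 16.7 and 56.1. The groups did not overlap, by a margin far under 1 read, and knockout replicate 4 stood well above the rest. The means were 13.0 ± 3.94 and 29.3 ± 18.1 (SD, n = 4 each), with a log2 fold change of 1.19 ± 0.39 (SE; adjusted p = 0.185 by edgeR). Without knockout replicate 4 the log2 fold change was 0.68 (edgeR adjusted p = 0.389). Egr3 (ENSMUSG00000033730, chromosome 14, 70077203 to 70082614) had 1 to 13 reads per library and was not tested. Its mean was 5.63 ± 3.28 normalized counts in the wild type and 6.04 ± 3.20 in the knockout (SD, n = 4 each), and no difference was detectable at this depth.

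Nr4a1, or Nur77 (ENSMUSG00000023034, chromosome 15, 101254269 to 101274795), was the most variable member. It was at 156, 123, 665 and 335 normalized counts in wild-type replicates 1 to 4. In knockout replicates 1 to 4 it was at 468, 525, 237 and 1425. The groups overlapped, and knockout replicate 4 held more than any other library. The means were 319.7 ± 248 and 664 ± 523 (SD, n = 4 each), with a log2 fold change of 1.13 ± 0.51 (SE; 95% interval 0.04 to 2.22; adjusted p = 0.357 by edgeR). The log2 fold change was 0.43 without knockout replicate 4 and 1.73 without wild-type replicate 3, and the adjusted p by edgeR were 0.739 and 0.121.

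Ier2 and Ier3 leaned in opposite directions. Ier3 (ENSMUSG00000003541, chromosome 17, 35821684 to 35822923) was at 510.3, 398, 290.1 and 323 normalized counts in wild-type replicates 1 to 4 and at 243, 215, 309 and 254 in knockout replicates 1 to 4. Only knockout replicate 3 reached into the wild-type range. The means were 380.3 ± 97.8 and 255 ± 39.3 (SD, n = 4 each), with a log2 fold change of −0.60 ± 0.15 (SE; 95% interval −0.93 to −0.27; adjusted p = 0.0882 by edgeR), and Ier3 did not pass. DESeq2 on the same counts gave −0.58 with an adjusted p of 0.0158, while the authors' deposited table gives −0.58 with an adjusted p of 0.252. Ier2 (ENSMUSG00000053560, chromosome 8, 84661331 to 84662852) was at 116, 111, 144 and 145 normalized counts in wild-type and at 140.1, 189, 130.5 and 162 in knockout replicates 1 to 4. The groups overlapped. Its log2 fold change was 0.30 (SE 0.14, 95% interval 0.01 to 0.59, edgeR adjusted p = 0.356).

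By count, 1 of the 9 tested members was called, and it was higher, where 0.785% of all 16551 genes tested were called and 0.278% were called higher. Klf6, Klf10 and Egr2 had groups that did not overlap in normalized counts, 3 of 9, where this held for 7.23% of all genes tested (3.38% higher and 3.85% lower). The median log2 fold change of the 9 was 0.31, with 7 positive and 2 negative, beside a median of 0.0001 over all genes tested. In the authors' deposited table, Klf6 was 1 of 8 members with an adjusted p and the only one under 0.05, as were 1.69% of all genes with one. The members were chosen with earlier results of these data known, so these counts describe them and support nothing by themselves.

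The members were also compared with each pair of knockout libraries alone. With knockout replicates 2 and 4 alone against the 4 wild-type libraries, the log2 fold changes were 0.32 for Klf6, 0.61 for Klf4, −0.26 for Klf10, 0.57 for Egr1, 1.57 for Egr2, 1.66 for Nr4a1, 0.47 for Ier2 and −0.73 for Ier3, beside 0.95 for Klf2. With knockout replicates 1 and 3 alone they were 0.30, 0.38, −0.16, −0.29, 0.53, 0.16, 0.08 and −0.47 in the same order, beside 0.35 for Klf2. Klf6 was nearly equal in both, and Egr1 changed sign. Klf2 passed with knockout replicates 2 and 4 alone, no other member passed with either pair, and the difference between the pairs was not tested.

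**Figure D2:**
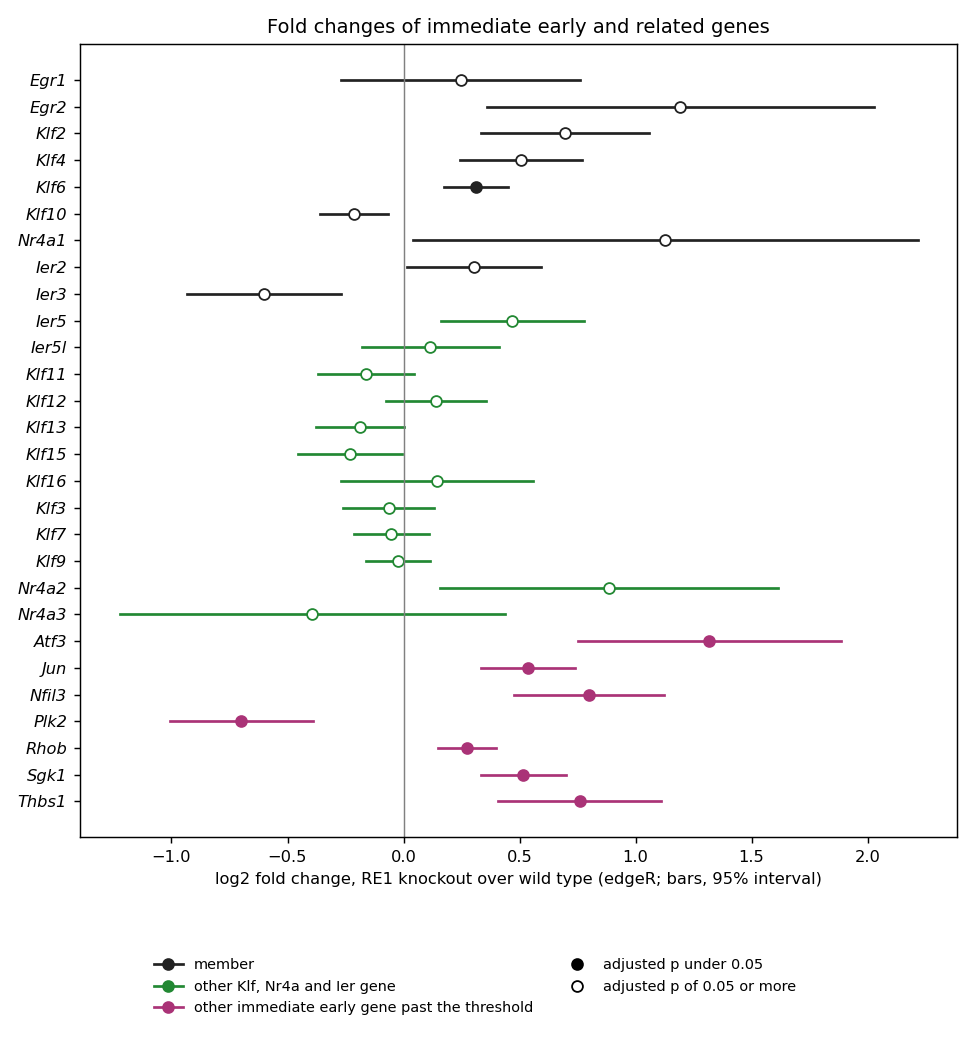
Log2 fold changes (RE1 knockout over wild type, x axis) with 95% intervals from edgeR for the 9 tested members (black), the 12 tested other Klf, Nr4a and Ier genes (green) and 7 of the 8 other immediate early genes past the threshold (purple); filled points have an adjusted p under 0.05. Klf6 is the only filled black point and no green point is filled.

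Within groups, 8 of the 9 tested members varied more than the median gene of like level. The SD of log2 CPM around the group means was 1.08 for Nr4a1, against a median of 0.11 over the 500 genes nearest to it in level. For Egr1 it was 0.49 against 0.17, for Klf2 0.36 against 0.10, for Ier3 0.30 against 0.12 and for Klf4 0.26 against 0.08. Klf6 was nearer to its like genes at 0.11 against 0.07, and Klf10 was under them at 0.09 against 0.11. Knockout replicates 2 and 4 each held the highest level of 4 of the 10 members, and wild-type replicate 2 the lowest of 6.

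Klf2 and Klf4 deviated together. Over the 8 libraries, deviations of log2 CPM from the group means had Pearson's r = 0.91 and Spearman's rho = 0.79 for this pair, with exact within-group permutation p of 0.00174, the smallest possible, and 0.00868. After adjustment over the 36 pairs of tested members the permutation p were 0.0625 and 0.125. Pearson's r was 0.54 without the 2 libraries farthest from the median of Klf2. The strength of the relation thus rests in part on those libraries. Klf2 and Ier2 had r = 0.84 and rho = 0.88 (permutation p 0.0191 and 0.00694, adjusted 0.229 and 0.125, r = 0.80 without the 2 farthest). Ier3 ran against Ier2, with r = −0.79 and rho = −0.83 (permutation p 0.0399 and 0.0278, adjusted 0.241 and 0.167, r = −0.74 without the 2 farthest). Across all 36 pairs 21 had a positive r, the median was 0.20, and no pair passed after adjustment. All libraries share the tissue and differ in depth. These permutations treat the libraries of a group as exchangeable, while the knockout libraries fell into the pairs described above, so the p-values describe these libraries only.

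Among 11075 other named genes, the one whose deviations lay closest to the mean profile of the members was Apold1, itself an early response gene of endothelium, with r = 0.99 over 8 libraries. Next came Dus3l, Syne2 and Dync1h1 (r = 0.97 each), then Brms1l, Cryz, Nbl1, Lysmd2 and Bckdha (r = 0.96 each). Apold1 had a log2 fold change of 0.28 ± 0.23 (SE; adjusted p = 0.644 by edgeR). The closest single genes were Nbl1 for Klf2, Gbas for Klf6 and Chd7 for Klf4 (r = 0.99 each), Lrrc32 for Nr4a1 (r = 0.98) and Fam168b for Egr1 (r = 0.98). For Egr2, Klf10, Ier2 and Ier3 they were Kctd5 (0.97), Rhbdd2 (0.98), Neo1 (0.98) and Lsm6 (0.99). These genes were picked as the closest of 11075, and r is given only as the measure of likeness.

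**Figure D3:**
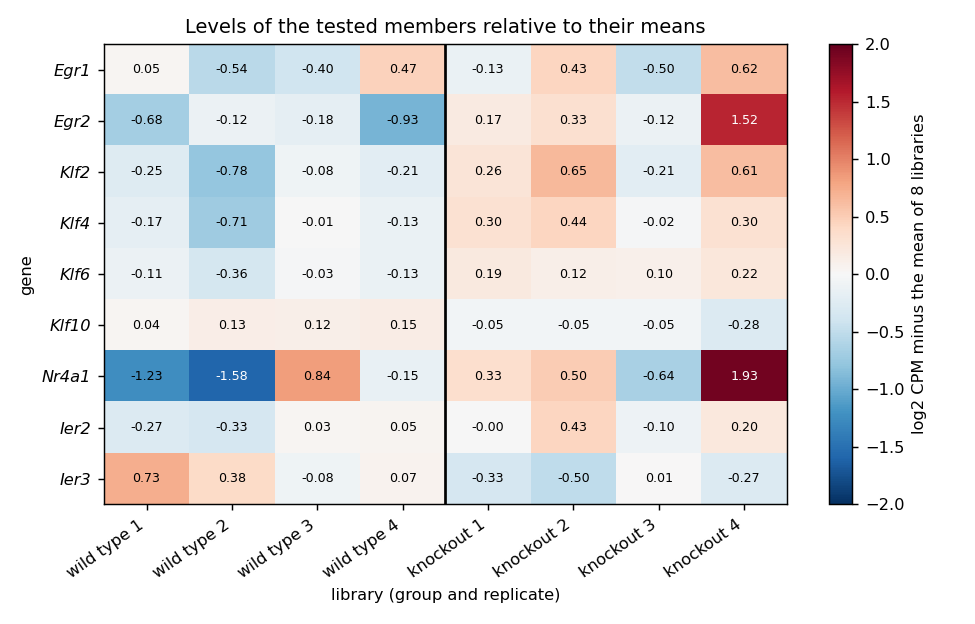
Level of the 9 tested members in each library as log2 CPM minus the mean of the 8 libraries (colour and number; red above, blue below), wild type left of the black line and RE1 knockout right of it. Nr4a1 runs from −1.58 in wild-type replicate 2 to 1.93 in knockout replicate 4, and Klf2 and Klf4 are lowest in wild-type replicate 2 and highest in knockout replicate 2.

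None of the closest relatives of the members passed. Of the 18 other Egr, Klf, Nr4a and Ier genes listed, 12 were tested, and the smallest adjusted p by edgeR was 0.155. An unadjusted edgeR p under 0.05 was reached by 3 of the 12, where 13.1% of all genes tested reached it. DESeq2 and limma-voom called 0. Their median log2 fold change was −0.04, with 5 positive and 7 negative. Ier5 averaged 758 ± 174 normalized counts in the knockout against 545 ± 93.1 in the wild type (SD, n = 4 each), with 0.47 ± 0.14 as log2 fold change and SE (adjusted p = 0.155 by edgeR). Nr4a2 had a log2 fold change of 0.89 (SE 0.34) and Klf15, a metabolic regulator of heart muscle, of −0.23 (SE 0.10), and the adjusted p by edgeR were 0.275 and 0.357. Nr4a3, named after its values were seen, was at −0.39 (SE 0.39). Egr4 had no reads in any library, and Klf1, Klf5, Klf8, Klf14 and Klf17 were too low to test.

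Upstream factors and EGR co-repressors gave no call in the main edgeR fit, and some other fits called 1 or 2 of them lower. An unadjusted edgeR p under 0.05 was reached by 5 of 18, where 13.1% of all genes tested reached it. All 18 were tested, among them serum response factor, the ELK, MEF2 and CREB genes, ERK kinases, Nab1 and Nab2, and the median log2 fold change was 0.03. The smallest p belonged to Mef2d at −0.21 (SE 0.05), Mkl2, a co-activator of serum response factor, at −0.32 (SE 0.08), and the ERK1 gene Mapk3 at −0.23 (SE 0.09), and the adjusted p by edgeR were 0.0547, 0.0827 and 0.285. DESeq2 called Mef2d and Mkl2 lower (adjusted p 0.0112 and 0.0258), and limma-voom called Mef2d (adjusted p = 0.0440), as did edgeR with robust empirical Bayes (adjusted p = 0.0385) and edgeR with the 50-read filter (adjusted p = 0.0465). Among 14 tested genes of ERK feedback 1 rose, Errfi1, an inhibitor of the EGF receptor, from 460.2 ± 180 to 912 ± 148 normalized counts (SD, n = 4 each), with 1.01 ± 0.20 as log2 fold change and SE (adjusted p = 0.0364 by edgeR). Errfi1 passed in 4 of the 8 fits that left out a library and missed the threshold with DESeq2 (adjusted p = 0.0523), with robust empirical Bayes in edgeR (adjusted p = 0.237) and with the clock index described below (0.34, edgeR adjusted p = 0.864). Spry1 was at 0.27 (SE 0.08), Dusp8 at 0.17 (SE 0.07) and Dusp7 at −0.24 (SE 0.11), and the adjusted p by edgeR were 0.125, 0.333 and 0.357. The median of the ERK feedback list was 0.01. An unadjusted edgeR p under 0.05 was reached by 4 of its 14 tested genes, against 13.1% of all genes tested. Over all genes tested 0.278% were called higher.

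Other immediate early genes gave calls in both directions. Of 44 tested, 6 rose, 2 fell and 36 did not pass, with a median log2 fold change of 0.13. Over all genes tested 0.278% were called higher and 0.508% lower. An unadjusted edgeR p under 0.05 was reached by 20 of the 44, where 13.1% of all genes tested reached it. The list was chosen with earlier results of these data known, so these counts only describe it. Those that rose were Sgk1, a serum- and glucocorticoid-induced kinase (1.43-fold), the AP-1 subunit gene Jun (1.45-fold), the bZIP factor genes Nfil3 (1.74-fold) and Atf3 (2.49-fold), the small GTPase gene Rhob (1.21-fold) and Thbs1, a secreted matrix protein (1.69-fold). Plk2, a stress-induced kinase, fell 1.62-fold. Their edgeR adjusted p ran from 0.0166 to 0.0489. The mean of Atf3 was 369 ± 188 normalized counts in the knockout against 149.5 ± 31.2 in the wild type, and that of Sgk1 963 ± 121 against 673 ± 56.0 (SD, n = 4 each). Btg2, Cyr61 and Fosl2 were next, with log2 fold changes of 0.89 (SE 0.21), 0.36 (SE 0.09) and 0.66 (SE 0.18) and edgeR adjusted p of 0.0653, 0.0720 and 0.0998. Without wild-type replicate 1 or knockout replicate 2 none of these 8 calls remained, and Jun and Sgk1 kept theirs in 5 and 6 of the 8 fits without a library. With robust empirical Bayes in edgeR only Sgk1, Nfil3 and Rhob of these passed, and Thbs1 also missed the threshold with DESeq2 (adjusted p = 0.0704).

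Genes linked to KLF2 and KLF4 in endothelium gave 1 call in each direction among 10 tested. S1pr1, a sphingosine phosphate receptor that KLF2 activates in T cells, rose to 1422 ± 204 normalized counts from 1045 ± 114 in the wild type (SD, n = 4 each), with 0.44 ± 0.09 as log2 fold change and SE (adjusted p = 0.0460 by edgeR). S1pr1 passed in 3 of the 8 fits that left out a library, with DESeq2 (adjusted p = 0.00126) and with limma-voom (adjusted p = 0.0440), but not with robust empirical Bayes in edgeR (adjusted p = 0.122). Vcam1 was at −0.36 (SE 0.14), Edn1, the endothelin gene, at −0.62 (SE 0.26) and Thbd, the thrombomodulin gene, at −0.11 (SE 0.06), and the adjusted p by edgeR were 0.287, 0.333 and 0.509. Nos3, endothelial nitric oxide synthase and the textbook KLF2 target, named after its values were seen, was at −0.02 (SE 0.07, edgeR adjusted p = 0.920). The list's median was −0.07. An unadjusted edgeR p under 0.05 was reached by 4 of its 10 tested genes, against 13.1% of all genes tested. Over all genes tested 0.278% were called higher and 0.508% lower.

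Of the sums given here, those of endothelial and fibroblast markers did not overlap between the groups, and the others did. The 16 endothelial markers summed to 1313 to 1371 CPM in wild-type and 1198 to 1290.0 CPM in knockout libraries, 14 of them with a negative log2 fold change and 1 lower past the threshold, while Klf2 and Klf4 had higher means in the knockout. In bulk tissue, fewer cells of a type and less RNA per cell cannot be told apart. Fibroblast markers summed to 1638 to 1913 and 1941 to 2032 CPM (10 genes, 2 of which rose), mesothelial markers to 4.18 to 15.5 and 10.4 to 29.3 CPM (8 genes), and erythroid markers to 1499.9 to 2198 and 1713 to 3021 CPM (6 genes). Macrophage markers lay at 172 to 244 and 172 to 202 CPM (10 genes), smooth muscle and pericyte markers at 694 to 720.5 and 677 to 742 CPM (8 genes), and neutrophil markers at 0.81 to 2.87 and 0.83 to 1.34 CPM (6 genes, Ly6g at 0). The 8 heat shock genes summed to 1271 to 1824 and 1532 to 2084 CPM, and none passed; Dnajb1 was at 0.74 (SE 0.26), Hspa8 at 0.21 (SE 0.08) and Hspa1a at 0.70 (SE 0.57), and the adjusted p by edgeR were 0.233, 0.285 and 0.640. Over all genes tested 0.278% were called higher and 0.508% lower. The part of the cell types above in the members' values was not tested.

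Clock genes differed between the groups. Of 19 clock genes 3 rose and 8 fell, where 0.278% of all genes tested were called higher and 0.508% lower. Dbp, a clock output gene, was lowest at a log2 fold change of −1.82 ± 0.25 (SE, adjusted p = 0.00681 by edgeR). Arntl, the core activator, was at 1.81 (SE 0.35, edgeR adjusted p = 0.0328). An index of clock phase was formed from log2 CPM as the mean over Arntl, Npas2, Clock and Nfil3 less the mean over 8 genes of opposite phase. Wild-type libraries lay between −3.25 and −1.37 on it, knockout libraries between −0.85 and 0.16. With the index as a covariate no member passed: Klf6 was at 0.21 (edgeR adjusted p = 0.747), Klf10 at −0.20, Klf4 at 0.11, Klf2 at 0.01 and Nr4a1 at −1.17 on the log2 scale. Nfil3, counted above among the immediate early genes, is part of the index. The ranges of the index do not overlap between the groups, so clock phase and genotype cannot be told apart here.

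**Figure D4:**
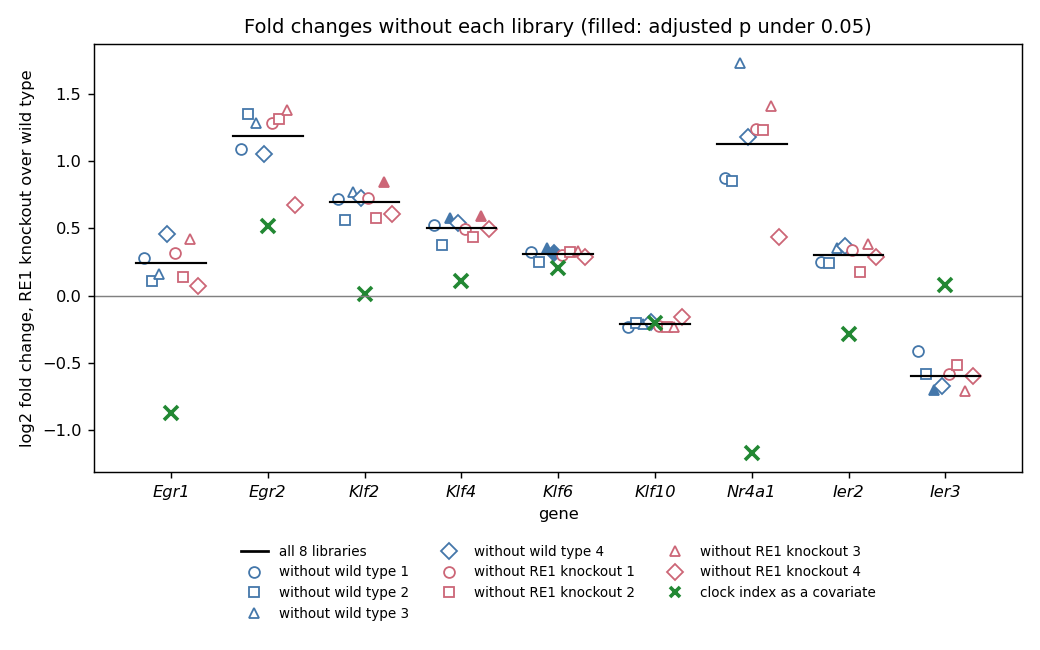
Log2 fold changes of the 9 tested members (y axis, RE1 knockout over wild type) with all 8 libraries (black line), without each library in turn (blue, a wild-type library left out; red, a knockout library left out; filled where the adjusted p is under 0.05) and with the clock index as a covariate (green cross). Nr4a1 and Egr2 drop most without knockout replicate 4, to 0.43 and 0.68, while Klf6 stays between 0.25 and 0.35.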

How the data were processed

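RNA-seq of left ventricle was done on 4 RE1 knockout and 4 wild-type mice. Per the labels' protocols, stranded total RNA libraries were made from 900 ng of RNA and read as 125-base pairs; the submitters' processing notes name STAR, DESeq2 and mm10. No source used here names the counting program, its strand setting or the annotation. As deposited by the authors, the tables hold raw counts per Ensembl gene and normalized counts, a signal that equals the raw count divided by 1 size factor per library. They also deposited a log2 fold change (wild type over knockout, sign turned here) with p-value and adjusted p-value.

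Raw counts were tested with edgeR 4.0.16 (glmQLFit and glmQLFTest, TMM, filterByExpr, group as the only term, R 4.3.3), with Benjamini-Hochberg adjustment over the 16551 genes tested and a threshold of 0.05. Log2 CPM used a prior count of 2. Alternatives used DESeq2 1.42.0 and limma 3.58.1. Positions and exon lengths are from GENCODE M21 (GRCm38), promoters from RefSeq (GRCm38.p6). Exact permutation tests used log2(normalized count + 1).

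Members and lists were chosen with earlier results of these data known. Genes named are all members, the list genes past the threshold with up to 3 more per list by smallest p, and the closest profiles (mean log2 CPM of at least 1, no provisional symbol). Some genes under this rule are not reported here. P-values of the group comparisons set the difference between the groups against the spread between these libraries. They treat the knockout libraries as separate units, although these fell into pairs over all genes. Replicates differed by more than sampling noise.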

Additional observations from a re-analysis of the deposited data

Results flagged for a closer look

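Knockout replicate 4 stood apart for 2 members. Egr2 was at 56.1 normalized counts there, and the gap to the next knockout library took 0.830 of the group's range, just over Dixon's critical value for 4 samples. Klf10 was at 309 normalized counts there, the lowest of its group, with a gap of 0.989 of the range. The 10 members in 2 groups gave 20 groups to screen, and chance flags about 1 in 20 groups.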

How the results depend on the processing

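The count of members called (1) was 6 without the low-count filter, 4 at an adjusted p under 0.1, 2 with DESeq2 (Klf6 and Ier3), 0 with the clock index as a covariate and 0 with knockout replicates 2 and 4 left out. Without single libraries it ran from 0 to 3. Over all genes the count (130) was 546, 338, 296, 2 and 24 under the same settings in that order, and 21 to 241 without single libraries. The 6 related lists together (8 higher, 2 lower) gave 18 higher and 5 lower without the filter, 4 lower at an adjusted p under 0.1, 4 lower with DESeq2, 5 higher with at least 50 reads in at least 4 libraries, 5 higher and 0 lower with limma on the deposited normalized counts, 0 lower with library totals as the only scaling, 3 higher and 1 lower with robust empirical Bayes in edgeR, 0 and 0 with the clock index, 1 and 1 with knockout replicates 2 and 4 left out and 1 lower with replicates 1 and 3 left out. Without single libraries they ran from 0 to 11 higher and from 0 to 4 lower. Directions reversed with the clock index for Egr1 (−0.88), Nr4a1 (−1.17), Ier2 (−0.28) and Ier3 (0.0751), and for Egr1 with knockout replicates 2 and 4 left out (−0.29); the cause was not tested. The robust setting and the pairs of knockout libraries were chosen after seeing the data.

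Replicate numbers did not pair the libraries: same-numbered libraries had correlations of their deviations from −0.11 to 0.03, and no wild-type library correlated best with its own number. With the replicate number as a block, 146 genes passed, 1 member among them (Klf6, adjusted p = 0.0390), and the lists gave 9 higher and 1 lower. S1pr1 and Plk2 no longer passed under the block (adjusted p 0.0618 and 0.0743), and Cyr61 and Btg2 did (0.00907 and 0.0253). Egr3, at 1 to 13 reads per library, is limited by depth.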
